A study of Mus musculus with 3 samples.

Results

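The AP-1 and BATF family is described here through 10 genes, Fos, Fosb, Fosl1, Fosl2, Jun, Junb, Jund, Batf, Batf3 and Atf3, which were chosen by name and all found among the 50600 genes counted. RNA was sequenced from T-helper 1 (Th1) cells, CD4 T cells steered in culture towards the interferon gamma producing lineage, of mouse strain C57BL/6NJ. The 3 libraries are biological replicates 1, 2 and 3 of a single group, with no other treatment or genotype in the labels, and the file headers carry a time of 24 hr. All 3 share 1 donor entry, age and sex are not given, and no label ties a replicate to an animal or culture of its own. The p-values therefore measure only the spread between these libraries, which may be technical.

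AP-1 is a dimer of basic leucine zipper (bZIP) proteins: a FOS protein pairs with a JUN protein, whereas JUN proteins can also pair with each other. The basic region grips the DNA and the leucine zipper holds the partners together. BATF and BATF3 are short members that pair with JUN proteins and sit with IRF4 or IRF8 on composite DNA elements in lymphocytes, and ATF3 is a stress-induced relative. In T cells, receptor signalling through MAP kinases and calcium switches on Fos and Jun within minutes as immediate early genes, and AP-1 acts together with NFAT at cytokine genes such as Il2. BATF with IRF4 is known for its part in effector T cell differentiation.

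The feature that all 10 share is the stretch of the basic region that contacts DNA. It is printed here because it is the part the whole family has in common, as 27 bases (9 codons) of coding sequence, 5′ to 3′, from GENCODE M21 transcripts, with the eighth codon in capitals.
Fos: aataagatggctgcagccaagTGCcgg
Fosb: aacaagctggctgcagctaagTGCagg
Fosl1: aacaagctagcagctgctaagTGCaga
Fosl2: aacaagctagctgcagccaagTGTcgg
Jun: aaccgcattgccgcctccaagTGCcgg
Junb: aacaggctggcggccaccaagTGCcgg
Jund: aaccgcatcgccgcctccaaaTGCcgc
Batf: aatcgcatcgctgcccagaagAGCcga
Batf3: aaccgggttgcagctcagaggAGCcgg
Atf3: aataaaattgctgctgccaagTGTcga
The codon in capitals encodes cysteine in the FOS and JUN families and in Atf3, and serine in Batf and Batf3. Jun and Jund share 24 of the 27 bases, the highest number of any pair, and Fosb, Fosl1 and Fosl2 share 14 each with Batf, as do Batf3 and Atf3 with each other, the lowest. The number of shared bases does not follow the subgroups: Atf3 shares more with Fos (22) than with Batf (17), and Junb more with Fos (21) than with Jund (19). These numbers count bases, which can differ between codons for the same residue, so they do not rank the encoded residues.

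Total counts were 3553547, 2945353 and 3369468 in replicates 1, 2 and 3. The counts were made with a strand option, while the sources used here do not give the strand of the library kit. An overlapped gene is one whose exons share bases with exons of an opposite-strand gene; a spanned gene overlaps the span of such a gene without shared exon bases; a near gene has one within 5000 bases; an isolated gene has none. Overlapped genes took 68, 77.5 and 70.3% of the counts, and isolated genes, 53.5% of all genes, took 14.1, 9.52 and 12.9%. On the mitochondrial genome, mt-Nd6 had 38715, 48536 and 51162 counts per kb of exon, against 2344, 2087 and 2805 for mt-Nd5 on the other strand. mt-Nd6 is the only protein-coding gene on its strand of the mitochondrial genome, and its mRNA is known as one of the scarcest there. If the kit marks the strand the other way round from the option, counts listed for a gene are reads from the opposite strand at its exons, and its own mRNA is counted for an opposite-strand gene or for none. Every level below, those of the listed pathway and marker genes included, holds under the option as used, and whether it is the gene's own mRNA was not tested. Levels are given as TPM, the counts per exon length scaled to the same sum in every library, and counts are listed for replicates 1, 2 and 3 in that order. Detected means that no library was below 1 TPM.

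Of the 10 members, 6 were detected (Junb, Jund, Batf, Fosl1, Jun and Fosl2), while 41.2% of 21764 protein-coding genes were. Fos, Atf3, Batf3 and Fosb were below that level in at least 1 library. The order by mean level was Junb, Jund, Batf, Fosl1, Jun, Fosl2, Fos, Atf3, Batf3 and Fosb. For 6 of the 9 neighbouring pairs in this order the ranges over the 3 libraries did not overlap, and for 3 pairs (Fosl2 and Fos, Fos and Atf3, Batf3 and Fosb) they did. The smallest p that an exact two-sided sign-flip test allows here, with 3 libraries, is 0.25, so the order is a description.

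**Figure D1:**
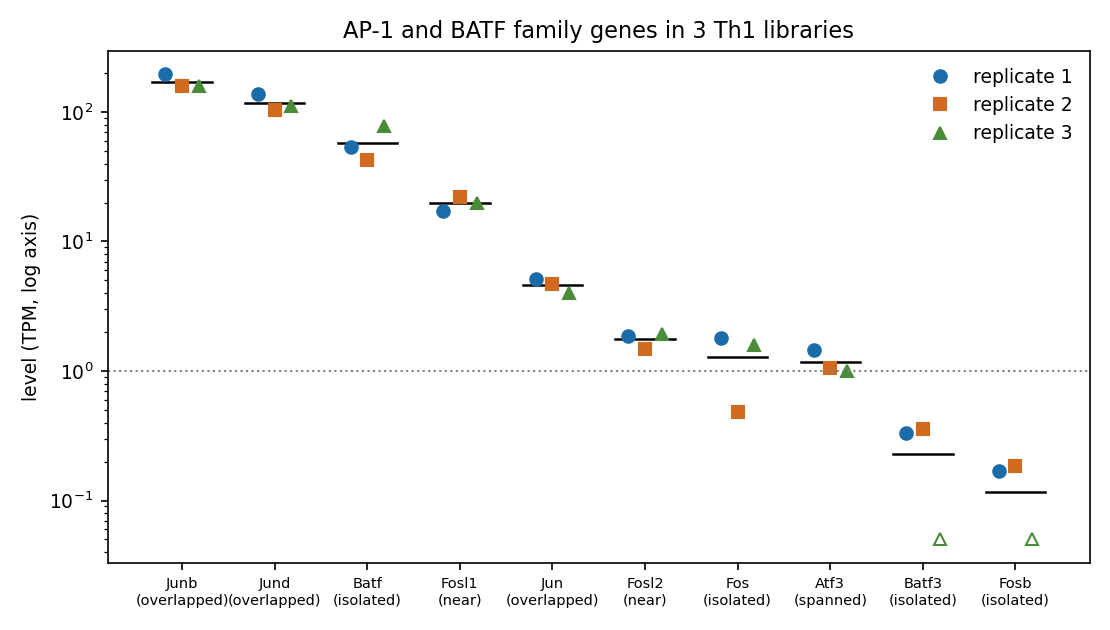
Level of each member in TPM on a log axis, with 1 symbol per library, a bar at the mean of the 3 libraries and a dotted line at 1 TPM; open triangles at the bottom mark a count of 0, which a log axis cannot show. Junb and Jund stand highest, and the word under each gene is its position relative to opposite-strand genes.

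The JUN family took most of the summed level. JUN proteins are the partners of FOS and BATF proteins, and Junb and Jund encode the forms with weaker or more constitutive activity than Jun. Junb (ENSMUSG00000052837, mm10 chromosome 8, 84974484 to 84978718, minus strand) had 859, 637 and 677 counts, or 196.4, 158.3 and 157.4 TPM (170.7 ± 22.2, SD, n = 3). Replicate 1 was the highest in TPM and the other two lay close together, whereas after the scaling described below replicate 2 was the highest. Jund (ENSMUSG00000071076, chromosome 8, 70698949 to 70700616, plus strand, 1 exon) had 437, 301 and 344 counts, or 138, 103 and 110.4 TPM (117 ± 18.3, SD, n = 3) with replicate 1 highest in TPM and, again, replicate 2 after that scaling. Within each library Junb was 1.42, 1.53 and 1.43 times the TPM of Jund, higher in 3 of 3.

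Jun, the founding member of the family, stood far below both. Jun (ENSMUSG00000052684, chromosome 4, 95049034 to 95052222, minus strand, 1 exon) had 31, 26 and 24 counts, or 5.11, 4.66 and 4.03 TPM (4.6 ± 0.546, SD, n = 3). The values of Jund were 27, 22.1 and 27.4 times those of Jun, and no library of either gene reached the range of the other.

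All 3 JUN genes, and no other member, share exon bases with a gene on the opposite strand. Jund encloses Gm11175 (ENSMUSG00000080058, annotated as antisense, chromosome 8, 70699162 to 70700080): all 877 exon bases of Gm11175 lie inside the Jund exon and make up 52.6% of it. Gm11175 had 12199, 12315 and 11387 counts, the 13th highest of all genes by mean count and the 10th highest per kb. Its counts per kb were 13910, 14042 and 12984, against 262, 180.5 and 206.2 for Jund, a ratio of 53.1, 77.8 and 63 (64.6 ± 12.4, SD, n = 3). Far more counts were thus listed for Gm11175 than for Jund in 3 of 3 libraries. If the option and the kit are opposite, the counts listed for Gm11175 are reads of Jund and this direction is turned. The values of mt-Nd6 and mt-Nd5 given above depend on the same option, and which case holds was not tested. Of 3044 overlapped protein-coding genes with enough counts for the test below, 62% had a partner that was higher per kb and 6.9% had one at least as far above them as Gm11175 was above Jund.

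Jun overlaps Junos (ENSMUSG00000087366, antisense, chromosome 4, 95051534 to 95167318) near its start, over 232 bases, 7.28% of the Jun exon and 5.64% of the Junos exons. Junos had 140, 137 and 135 counts, or 34, 33.3 and 32.8 per kb, against 9.72, 8.15 and 7.53 per kb for Jun, which is 3.5, 4.08 and 4.36 times as many. The same limit holds for this pair and for Junb, where the direction was the other one. It overlaps Prdx2, which encodes a peroxiredoxin that reduces peroxides (ENSMUSG00000005161, chromosome 8, 84969587 to 84974834), over 173 bases at its 3′ end, 7.52% of its exons. Prdx2 had 225, 127 and 176 counts, or 73.8, 41.6 and 57.7 per kb, which is 0.198, 0.15 and 0.196 times the 373, 277 and 294 of Junb. Because there is 1 count per gene, the counts of the shared bases cannot be set apart, which adds to the uncertainty of the levels of Jun, Junb and Jund. The limit of the strand option holds for the other members too.

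**Figure D2:**
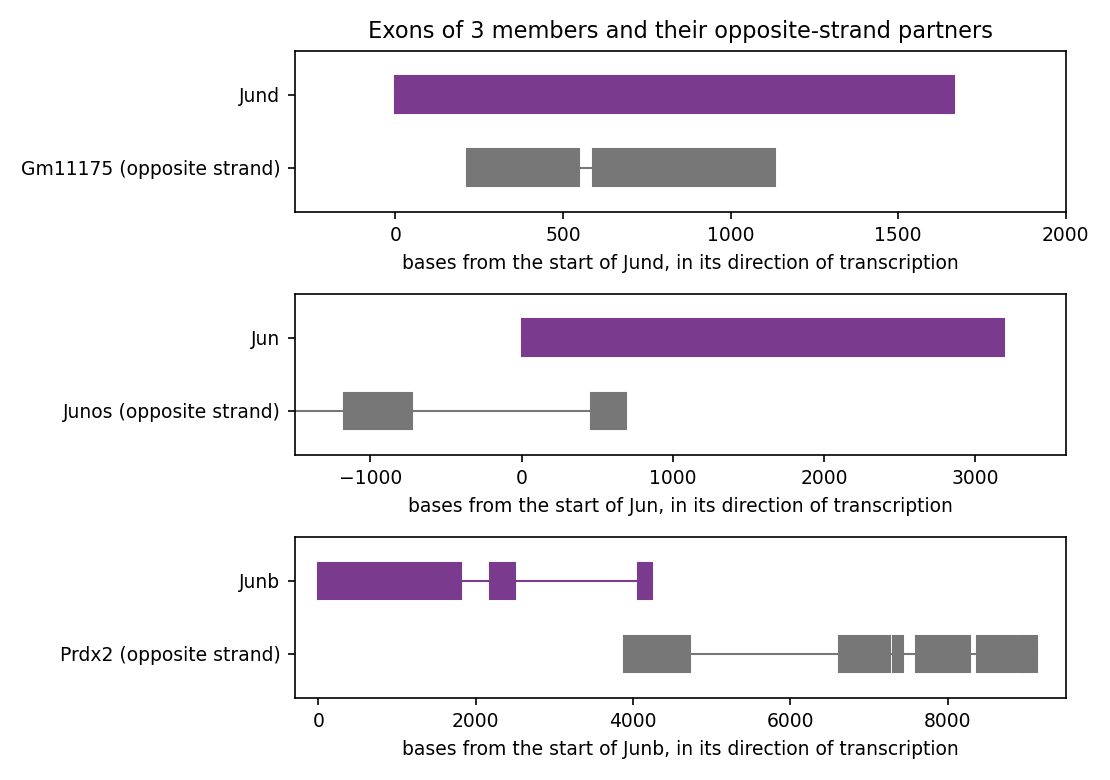
Exons (boxes) of Jund, Jun and Junb and of the opposite-strand gene that each shares bases with, drawn to scale by distance from the member's start in its direction of transcription. Gm11175 lies wholly inside Jund, Junos meets the start of Jun (its far exons are cut off) and Prdx2 meets the end of Junb.

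**Figure D3:**
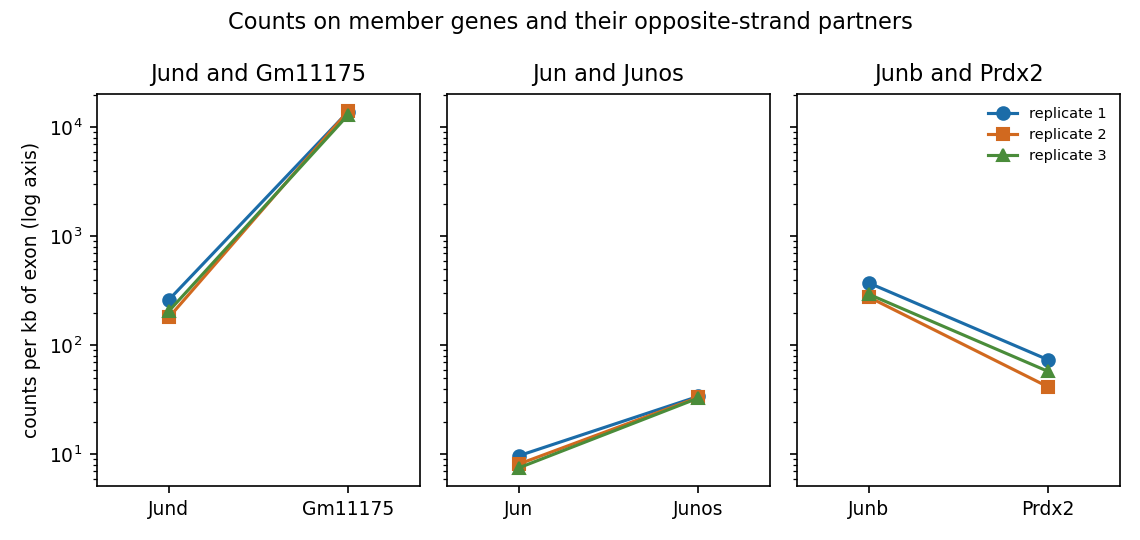
Counts per kb of exon on a log axis for the 3 overlapped members and their opposite-strand partners, with 1 line per library. The partner is higher for Jund and Jun and lower for Junb, in all 3 libraries.

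Among FOS genes, which supply the partner that cannot dimerise with itself, Fosl1 stood highest. Fosl1 encodes FRA-1, a FOS protein without the long C-terminal activation domain of FOS. Fosl1 (ENSMUSG00000024912, chromosome 19, 5447703 to 5455945, plus strand) had 56, 66 and 63 counts, or 17.3, 22.1 and 19.8 TPM (19.7 ± 2.43, SD, n = 3), lowest in replicate 1. The nearest opposite-strand gene, Ccdc85b, lies 843 bases away and had 36, 18 and 20 counts. Fosl2, which encodes the related FRA-2 (ENSMUSG00000029135, chromosome 5, 32135801 to 32157842, plus strand), had 34, 25 and 35 counts over 9.68 kb of exon, or 1.85, 1.48 and 1.94 TPM (1.75 ± 0.243, SD, n = 3). Fosl1 was 9.34, 15 and 10.2 times as high as Fosl2, higher in 3 of 3 libraries.

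The classical immediate early genes Fos and Fosb had few counts. Fos (ENSMUSG00000021250, chromosome 12, 85473890 to 85477273, plus strand) had 8, 2 and 7 counts, or 1.79, 0.486 and 1.59 TPM (1.29 ± 0.702, SD, n = 3), with replicate 2 apart from the others. Fosb (ENSMUSG00000003545, chromosome 7, 19302696 to 19310051, minus strand) had 2, 2 and 0 counts. The count of 0 in replicate 3 allows up to 3 counts, equal to 0.89 CPM there (counts scaled to the library total, without the length). That limit does not apply to the counts of 2, which are low but not 0. Fos and Fosb are both isolated, and under the strand option these few counts do not show that the mRNAs were absent.

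Batf was the highest of the members without an opposite-strand overlap. Batf (ENSMUSG00000034266, chromosome 12, 85686669 to 85709087, plus strand, isolated) had 98, 71 and 138 counts over 0.955 kb of exon, or 54, 42.5 and 77.3 TPM (57.9 ± 17.7, SD, n = 3). Replicate 3 was the highest and replicate 2 the lowest. Over all protein-coding genes, the mean level of Batf was above that of 95%, a lower position than that of Junb (98.2%) and Jund (97.4%). Within its own class, Batf was above 97.9% of the 9611 isolated protein-coding genes. Junb stood above 94.5% and Jund above 92.4% of 4801 overlapped ones. Positions within different classes depend on the other genes of each class, so they do not rank Batf against the JUN genes. Fosl1 stood above 86.1% of 4785 near protein-coding genes, and Jun above 48.5% of the overlapped ones.

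Batf3 (isolated) and Atf3 (spanned), which lie on opposite strands of chromosome 1, had few counts. Batf3 (ENSMUSG00000026630, 191097847 to 191108945), known for its part in the development of cross-presenting dendritic cells, had 1, 1 and 0 counts. Atf3 (ENSMUSG00000026628, 191170296 to 191218039) had 6, 4 and 4 counts, or 1.47, 1.06 and 0.994 TPM (1.17 ± 0.255, SD, n = 3). Batf was 36.8, 40 and 77.8 times the TPM of Atf3.

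By subgroup, the JUN family held 81.5, 79.6 and 72.8% of the summed TPM of the 10 members (78 ± 4.59, SD, n = 3). The FOS family held 5.06, 7.25 and 6.23% (6.18 ± 1.1, SD, n = 3), and Batf, Batf3 and Atf3 together held 13.4, 13.1 and 21% (15.8 ± 4.45, SD, n = 3). Junb and Jund alone made up 76.7% ± 4.48 (SD, n = 3). These shares rest on the overlapped genes: over the 7 members without shared exon bases, Batf alone held 70.2, 62.4 and 76.1% and Fosl1 22.5, 32.4 and 19.4%.

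Between libraries, the counts of each gene were set against Poisson error in a chi-square test with 2 degrees of freedom. Library sizes were scaled by TMM, a trimmed mean that sets most genes level, with Benjamini-Hochberg adjustment over all 10216 genes with enough counts. Of these genes 35.6% passed at 0.05. Of the 6 members with enough counts, Fosl1, Junb and Batf passed, while Fosl2, Jun and Jund did not; the other 4 could not be tested. With 3 of 6 against a background of 35.6%, nothing particular to the members is read from this count. Both numbers depend on the setting: without replicate 2, 1 member (Batf) and 9.04% of all genes passed, and with library sizes within classes, 4 of 6 members and 26.1%. Among overlapped genes 53% passed, and 1 of 3 members did. Among near genes 21.7% passed, and Fosl1 but not Fosl2 did. Among isolated genes 23.7% passed, and Batf, the single isolated member tested, did.

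Batf and Fosl1 kept their highest library with total counts, with TMM scaling and with scaling within classes. Batf was highest in replicate 3 (chi-square test, adjusted p = 0.00534), at 25, 28.4 and 39.5 CPM after TMM scaling. Without replicate 3 its adjusted p was 0.516, without replicate 1 it was 0.0773, and over the alternatives it ranged from 0.000956 to 0.516. Fosl1 was highest in replicate 2 (chi-square test, adjusted p = 0.00846), at 14.3, 26.4 and 18 CPM after TMM scaling. Without replicate 2 its adjusted p was 0.504, without replicate 1 it was 0.106, and with total counts as library sizes it was 0.214; over the alternatives it ranged from 0.00212 to 0.504. Beside these, the median isolated gene stood at 0.28, -0.37 and 0.10 (log2 CPM minus its mean over libraries) in replicates 1, 2 and 3, and the median near gene at 0.24, -0.32 and 0.09. Batf stood at -0.13, -0.32 and 0.44 and Fosl1 at -0.25, 0.26 and -0.01. Batf thus lay below its class median in replicate 1, near it in replicate 2 and above it in replicate 3. Fosl1 lay on the other side of 0 from its class median in replicates 1 and 2, and close to 0 in replicate 3. With scaling within classes the adjusted p of the chi-square test was 0.00689 for Batf and 0.00365 for Fosl1.

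For the JUN genes the highest library depended on the scaling. Junb (chi-square test, adjusted p = 2.26e-05) was highest in replicate 1 by CPM (241.7, 216.3 and 200.9) and by the scaling within its class, but highest in replicate 2 after TMM scaling (218.8, 255.2 and 193.7). Its adjusted p was 0.144 without replicate 2 and ranged from 1.04e-05 to 0.144 over the alternatives. Jund changed in the same way, from replicate 1 by CPM (123, 102.2 and 102.1) to replicate 2 after TMM scaling (111.3, 120.6 and 98.5). Its adjusted p was 0.0816, but 0.0244 with total counts and 0.000443 with library sizes within its class. Which library is highest is therefore left without a reading for both genes.

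**Figure D4:**
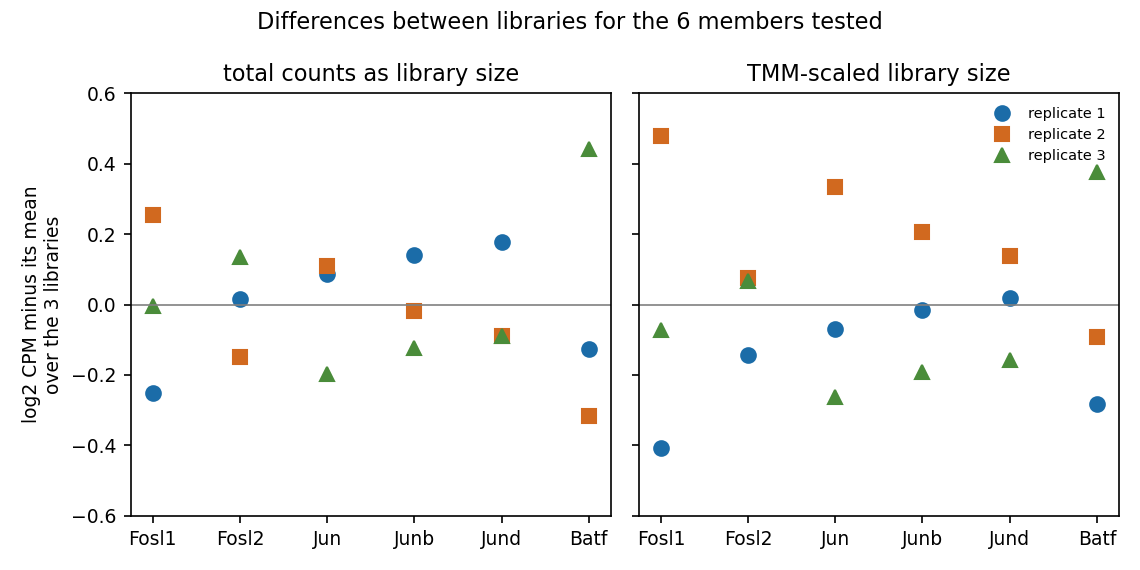
Log2 CPM of each of the 6 tested members in each library minus its mean over the 3 libraries, with total counts (left) and TMM-scaled sizes (right) as library size. Batf is highest in replicate 3 and Fosl1 in replicate 2 in both panels, whereas Junb and Jund change from replicate 1 to replicate 2.

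Genes that act upstream of AP-1 or beside it were nearly all detected. All 29 genes of the kinases and regulators upstream of AP-1 were detected, with a median of 11.3 ± 2.87 TPM (SD, n = 3), against a median of 3.18 ± 0.267 for the members and 0.386 ± 0.0703 for protein-coding genes. Among the highest were the kinase gene Rps6ka1 at 35.4 ± 11.9 TPM (opposite Gm12977) and Srf, whose product drives Fos transcription, at 24.8 ± 3.69. The 6 partner genes for composite elements were all detected (17.1 ± 5.24 TPM): Irf4, the partner of BATF, stood at 61.3 ± 20 TPM, Irf8 at 36.5 ± 7.23 and Nfatc1 at 23.6 ± 7.44, all 3 isolated like Batf. Of the upstream genes 7 of 29 tested passed the chi-square test between libraries, and of the partners 4 of 6, against 35.6% of all genes tested.

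Other immediate early genes, induced by the same signals as Fos, were mostly detected. Of 20 such genes 19 were detected (median 14.1 ± 5.35 TPM), led by Myc at 103 ± 26.7 TPM, Ier2 at 80.8 ± 8.53 and the phosphatase gene Dusp2 at 64.5 ± 20.9, and 10 of 18 tested passed between libraries. Of 18 genes known for AP-1 sites in T cells 14 were detected (11.5 ± 3.05 TPM), with Il2 at 265 ± 118 TPM, Tnf at 108 ± 36 and Cd40lg at 95 ± 30.8, and 6 of 13 tested passed. Among 34 related bZIP genes 22 were detected and 14 are overlapped (6.16 ± 1.42 TPM). The highest were Ddit3 at 196 ± 19.8 TPM (opposite Mars), Atf5 at 168 ± 4.4 (opposite Nup62 and Il4i1) and Atf4 at 165 ± 42.5, and 9 of 24 tested passed. The members were chosen and the lists written with earlier results of these data known, so these counts are descriptions. They are to be read beside the same 35.6% of all genes tested. That share was 53% of overlapped, 21.7% of near and 23.7% of isolated genes, and the lists differ in how many of their genes are overlapped.

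The labelled cell type was checked against its markers. All 10 T cell markers were detected (98.9 ± 32 TPM), with Trac at 196 ± 73.4, Cd247 at 185 ± 5.54 (opposite Pou2f1) and Trbc2 at 117 ± 35.2. Of 5 Th1 defining genes 3 were detected: Il12rb2 at 14.8 ± 2.01 (opposite Serbp1), Stat4 at 5.01 ± 1.87 and Tbx21 at 2.47 ± 0.727. Tbx21 had 15, 11 and 8 counts, and Ifng had 2, 2 and 1. These genes do not settle the Th1 part of the label, which is taken here as given. For other cells, detected genes numbered 1 of 2 for CD8 T cells, 2 of 6 for B cells, 0 of 4 for NK cells, 1 of 7 for myeloid cells and 1 of 5 for dendritic cells. Their summed levels in replicates 1, 2 and 3 were 10.8, 7.87 and 13.1 TPM for CD8 T cells, 64.1, 37.2 and 60.6 for B cells, 0.38, 0.413 and 0.773 for NK cells, 154, 166 and 160 for myeloid cells and 1.19, 1.36 and 1.62 for dendritic cells. The myeloid sum was almost wholly Csf1r (160 ± 6.06 TPM, opposite Hmgxb3), with Lyz2, Itgam, Cd14, S100a8 and S100a9 at 0 counts, and the B cell sum was mainly Ighm (46.4 ± 14.6 TPM), with Ms4a1 at 0. Irf8 and Batf are also expressed in B and dendritic cells, and the part of other cells in their levels was not tested. In such bulk samples, fewer cells of a type and less RNA per cell cannot be told apart.

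AP-1 genes are known to be controlled in part by bZIP proteins themselves, so the 250 bases before each start were searched for binding motifs in the RefSeq promoter table (GRCm38.p6), which holds 9 of the 10 members, without Fosl1. The motifs were the AP-1 element TGANTCA, the CRE TGACGTCA, its variants TGACATCA and TTACGTCA, and the CRE core TGACG, on both strands; the last lies inside the CRE and, read on the other strand, inside TTACGTCA. The variants were chosen after the promoters had been read. TGANTCA was in 6.75% and TGACGTCA in 1.55% of all 32851 promoters, and neither was in a member's window. TGACATCA was in the window of Jun (2.93% of all promoters) and TTACGTCA in that of Atf3 (0.447%), and TGACG was in 5 of 9 members, namely Atf3, Batf, Fos, Fosb and Junb (17.8% of all promoters). The windows are shown for the 6 members with a match, each with up to 20 bases on either side and the match in capitals.
Jun, chr4:95052240-95052287, minus strand: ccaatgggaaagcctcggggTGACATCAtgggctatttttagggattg
Fos, farther match, chr12:85473741-85473785, plus strand: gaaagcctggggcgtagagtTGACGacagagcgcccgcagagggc
Fos, nearer match, chr12:85473804-85473848, plus strand: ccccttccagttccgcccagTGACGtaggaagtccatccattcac
Junb, chr8:84978830-84978874, minus strand: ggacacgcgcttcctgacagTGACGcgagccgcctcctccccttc
Batf, chr12:85686602-85686646, plus strand: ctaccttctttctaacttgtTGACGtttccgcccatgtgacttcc
Fosb, chr7:19310081-19310125, minus strand: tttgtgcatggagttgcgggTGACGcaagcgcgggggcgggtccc
Atf3, chr1:191183334-191183363, minus strand: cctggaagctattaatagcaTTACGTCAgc
The matches end 38 bases before the start in Jun, 125 and 62 in Fos, 102 in Junb, 94 in Batf, 56 in Fosb and 3 in Atf3. The start used for Atf3 is an inner one, and its window lies inside the span of the gene (191170296 to 191218039). The core was thus present beside Junb, the highest member, and beside Fos, which had 17 counts in all. A match is a description of the letters and not a bound site.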

How the data were processed

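Each deposited file holds raw read-pair counts by gene, which the authors made with featureCounts 1.4.6-p4 on GENCODE M13 exons with both ends aligned and strand option 1, per the file headers, on mm10 per the labels. The assay is labelled total RNA, whereas the named protocol is one for polyA RNA, per the labels. The sources used here do not give the aligner's version.

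Symbols came from GENCODE M21 by gene identifier (50376 of 50600 matched). TPM and CPM were calculated from these counts and the exon length in the same files, which joins all transcripts of a gene. Opposite-strand classes came from the exon coordinates with bedtools 2.31.1. The chi-square test used genes kept by edgeR's filterByExpr and TMM sizes (edgeR 4.0.16; R 4.3.3), and DESeq2 1.42.0 gave alternative size factors. The chi-square test was also run on simulated Poisson counts with known changes at the same library sizes. Such counts hold no other variation between libraries, so the run does not show how the test behaves where there is some. Python 3.11.15, numpy 2.4.6, pandas 2.3.3 and scipy 1.17.1 were used.

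With 1 group, no contrast between conditions was possible. Of other lists, the 3 genes with the highest mean TPM are named, besides genes at 0, except that some list genes are not reported here. The members, lists and rules were chosen with earlier results of these data known. Leaving out each replicate, other library sizes, filters, thresholds, pseudocounts and TPM bases were tried. Counting error limits precision: a count of 0 allows up to 3 counts, and without molecular identifiers a read pair is not an independent molecule.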

Additional observations from a re-analysis of the deposited data

How the results depend on the processing

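The number of members that passed between libraries was 3 at TMM sizes and ranged from 1 to 2 when a replicate was left out: Junb alone without replicate 1, Batf alone without replicate 2, and Fosl1 and Junb without replicate 3. Over all genes the number was 3642 and ranged from 971 to 3795 when a replicate was left out, the 971 being without replicate 2. With total counts it was 5278 (51.7%), with DESeq2 size factors 3543 (34.7%), within classes 2666 (26.1%) and without a filter 3512 (18.5%), and 3, 3, 4 and 3 members passed. Between 4 and 8 members were detected over the alternatives (8 with TPM over nuclear protein-coding genes, 4 at 5 TPM). Subgroup shares moved with CPM in place of TPM, to 7.67% for the FOS family, 84.2% for the JUN family and 8.18% for Batf, Batf3 and Atf3. The overlapped members are the whole JUN family, so leaving them out only rescales the other subgroups. The shares were then 28.6% for the FOS family and 71.4% for Batf, Batf3 and Atf3. With all 10 members and a replicate left out, the FOS family ranged from 5.65 to 6.74% and the JUN family from 76.2 to 80.6%. Batf, Batf3 and Atf3 together ranged from 13.3 to 17.2%. TPM over nuclear protein-coding genes raised all 10 levels by more than 1 SD (Junb to 460 TPM, Batf to 155). This is because other gene types and the mitochondrial genes are left out of the sum. No log2 ratio between neighbours within a subgroup changed sign with a pseudocount of 0.1 TPM, and 5 of 7 moved by more than 1 SD. No paired analysis was possible because there is a single group.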
